A study of Tupaia belangeri with 15 samples.

Results

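The genes described here are 9 brakes of the cell cycle and markers of cell senescence, chosen by name: CDKN1A, CDKN1B and CDKN1C of the CIP/KIP family, CDKN2A, CDKN2B and CDKN2C of the INK4 family, and RB1, LMNB1 and MDM2. By symbol, 8 of the 9 matched 1 each of the 83605 features of the tree shrew (TS) annotation, none of them as a numbered copy. CDKN2A matched none and was not analysed here. Nuclei had been isolated from 15 frozen TS (Tupaia belangeri) retinas and profiled by single-nucleus RNA sequencing on the 10x Genomics platform, 5 retinas each from infant, mature and senile animals. The labels name the stage and give no genotype, treatment or age in months. Senile animals were bought from another institute than infant and mature animals, so stage and source cannot be told apart in any comparison with the senile stage. Each level below is the number of unique molecular identifiers (UMIs) of a gene per 1000000 UMIs of a class in 1 retina (CPM), and the retina is the replicate.

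Cells leave the cycle when cyclin-dependent kinases can no longer phosphorylate the retinoblastoma protein, the product of RB1, which then holds E2F factors and keeps S-phase genes off. INK4 proteins block the D-type cyclin kinases CDK4 and CDK6, whereas CIP/KIP proteins bind a wider range of cyclin-kinase complexes, and CDKN1A is switched on by p53, which MDM2 in turn marks for degradation. Retinal neurons are postmitotic, and in many tissues senescent cells are recognised by raised INK4 or CIP/KIP transcripts and by loss of lamin B1, the product of LMNB1.

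Sequencing gave 13429873 to 58734300 UMIs and 4269 to 9856 barcodes per library, and 2 libraries shared at most 30 barcodes (0.422% of the smaller library was the highest share). Of 111825 nuclei kept, 76527 were assigned by marker genes to 1 of 9 classes: cones, rods, bipolar cells (BCs), horizontal cells (HCs), amacrine cells (ACs), retinal ganglion cells (RGCs), Müller cells, astrocytes and microglia. Cones, BCs, ACs, RGCs and Müller cells had at least 10 nuclei in all 15 retinas. The 5889 RGC nuclei ranged from 22 (Mature 4) to 751 (Infancy 2) per retina, and 95.96% of those lying in a named cluster lay in an RGC cluster. Clusters took their names from their gated nuclei, so this share is not an independent check of the gate. Of the 22 RGC nuclei of Mature 4, 17 lay in AC clusters and 0 in an RGC cluster. The main values of mature RGCs are therefore also given without this retina. The median RGC nucleus held 9 UMIs of RGC markers and 0 of the markers of cones, ACs, HCs or glia. It also held 8 UMIs of BC markers, mainly CA10 (1118 ± 213 CPM in RGCs, 3832 ± 368 in BCs) and GRIK1li1 (610 ± 239 and 11797 ± 1460), whereas TRPM1, the channel of ON BCs, stood at 8.53 ± 5.38 CPM in RGCs and 379 ± 97 in BCs (SD, n = 15). POU4F2, a defining RGC factor, was listed at 0 in all libraries, as was the AC marker GAD2, so these classes rest on their other markers.

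CDKN2B, which encodes the INK4 inhibitor p15, was the member that passed the test between stages with edgeR and the filter. Over the members, 22 pairs of gene and class passed the filter on low counts, and in the comparison of senile with infant retinas 2 of them passed at an adjusted p of 0.05, both CDKN2B and both higher in the senile retinas, in RGCs and in BCs. In BCs the gene reached the filter through the senile retinas alone, and in RGCs through 5 senile, 5 mature and 1 infant retina. How many other features entered in these ways was not counted. Of all features tested, 1.16% passed in RGCs and 1.59% in BCs in either direction. Between mature and infant retinas 1 pair passed, CDKN2B in RGCs, where 0.823% of all features passed. Between senile and mature retinas 0 pairs passed with edgeR, 2 had an unadjusted p under 0.05, and 1 passed with DESeq2 (BCs, where 0.791% of all features did).

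In RGCs, CDKN2B stood at 2.83, 2.51, 4.49, 1.14 and 0 CPM in Infancy 1 to 5. It stood at 15.3, 20.2, 9.81, 9.84 and 16.2 CPM in Mature 1 to 5, and at 33.8, 28.3, 28.3, 24 and 27.4 CPM in Senile 1 to 5. Every mature retina lay above every infant retina, and every senile retina above every mature one. All senile retinas lay above all infant ones for 2.85% of the features tested in RGCs, and all mature above all infant ones for 1.56%. Of 14953 features tested in RGCs, 3 (0.0201%) rose over the 3 stages in this way without overlap, and CDKN2B was among them. The stage means were 2.19 ± 1.71, 14.3 ± 4.47 and 28.3 ± 3.51 CPM (SD, n = 5 each), from 37, 195 and 319 UMIs. The value of Mature 4 came from 2 UMIs in 22 nuclei and that of Mature 5 from 10 UMIs in 35 nuclei. Without Mature 4 the mature mean was 15.4 ± 4.3 CPM (n = 4), and the lowest mature retina still stood at 9.81 CPM.

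The log2 fold change of CDKN2B in RGCs was 3.55 ± 0.32 (SE) between senile and infant retinas, with an adjusted p of 2.74e-06 by edgeR's quasi-likelihood test, the 11th smallest p among the 14953 features. Between mature and infant retinas, which came from the same institute, it was 2.58 ± 0.33 (adjusted p = 0.000272, edgeR), and 2.59 without Mature 4 (edgeR adjusted p = 0.000486). Between senile and mature retinas it was 0.97 ± 0.28, which did not pass (edgeR adjusted p = 0.564, unadjusted p = 0.00259), although the groups did not overlap, and 0.95 without Mature 4 (edgeR adjusted p = 0.518). Of all features, 0.716% had every senile retina above every mature one. Within the 7 libraries labelled polyA RNA the difference between senile and infant RGCs was 3.06 on the log2 scale (edgeR adjusted p = 0.000342), and within the 8 labelled total RNA it was 4.92 (adjusted p = 0.00491). Between mature and infant RGCs the corresponding values were 2.39 (edgeR adjusted p = 0.00265) and 3.75, the latter not past the threshold (adjusted p = 0.0889).

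**Figure D1:**
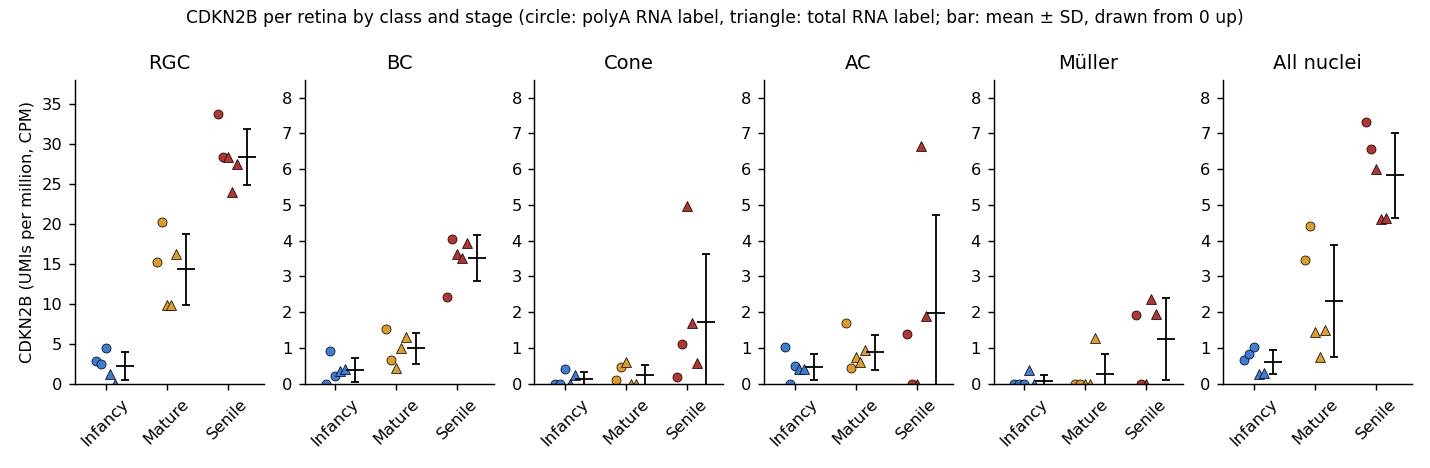
CDKN2B in UMIs per 1000000 UMIs (vertical axis, with a longer scale for RGCs than for the other panels) in each retina by stage, for RGCs, BCs, cones, ACs, Müller cells and all nuclei; bars give the mean ± SD of the retinas with at least 10 nuclei. In RGCs the infant retinas lie at or below 4.49, the mature ones between 9.81 and 20.2 and the senile ones at or above 24 CPM.

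Summed over the RGC marker list, of which 9 genes were detected in RGCs, the level was 1762 ± 800 CPM in infant, 1328 ± 361 in mature and 1454 ± 497 in senile RGCs (SD, n = 5). RBPMS, an RNA-binding protein found in nearly all RGCs, stood at 290 ± 95 CPM in infant, 291 ± 96 in mature and 300.4 ± 99.0 in senile RGCs. Single markers went both ways, with POU4F1, an RGC factor, at 37.4 ± 5.3, 41.4 ± 9.5 and 50.1 ± 8.8 CPM and the surface protein THY1 at 351 ± 274, 141 ± 98 and 189 ± 161 CPM, in ranges that overlapped between stages. The markers of Müller cells summed to 30.2 ± 9.1, 58.1 ± 38.7 and 39.3 ± 22.5 CPM in RGCs of the 3 stages, and those of ACs to 39.2 ± 14.9, 40.9 ± 14.8 and 34.2 ± 13.8 CPM, ranges that overlapped. The BC markers stood at 1718 ± 459, 1782 ± 407 and 1882 ± 511 CPM in RGCs, against 16481 to 17447 CPM in BCs by stage. Fewer expressing nuclei and less RNA per nucleus could be separated only in part, since few nuclei held more than 1 UMI.

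Among single RGC nuclei, 34 of 2218 infant nuclei held a CDKN2B UMI (1.53%, exact 95% binomial interval 1.06 to 2.14%), against 160 of 1693 mature nuclei (9.45%, 8.10 to 10.9%) and 264 of 1978 senile nuclei (13.3%, 11.9 to 14.9%). Without Mature 4 the mature share was 159 of 1671 (9.52%, 8.15 to 11%). These intervals cover counting error only. RGC nuclei differed in depth, with medians of 3000 to 18247 UMIs per retina, so each nucleus with at least 2000 UMIs was thinned to 2000. The shares were then 0.417%, 2.88% and 5.68% of the 2157, 1633 and 1902 nuclei left in the 3 stages, after 61, 60 and 76 shallower nuclei had been set aside. By retina the thinned shares were 0 to 0.792% in infancy, 0 to 5.71% in the mature and 3.85 to 6.49% in the senile stage, so mature and senile retinas overlapped on this measure, on which Mature 4 and Mature 5 rest on 21 and 35 nuclei. Without Mature 4 the lowest mature share was 2.49%. No RGC nucleus held more than 4 CDKN2B UMIs, and among senile RGC nuclei with any, 222 held 1, 32 held 2, 7 held 3 and 3 held 4. In Müller cells, glia with a low level of this gene, the share with a UMI was 0.0375% in infancy and 0.427% in the senile stage, below that of RGCs at each stage. After thinning it was 0.0807% in infancy and 0.0997% in the senile stage, from 1 nucleus each, with 1429 and 1107 shallower nuclei set aside.

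**Figure D2:**
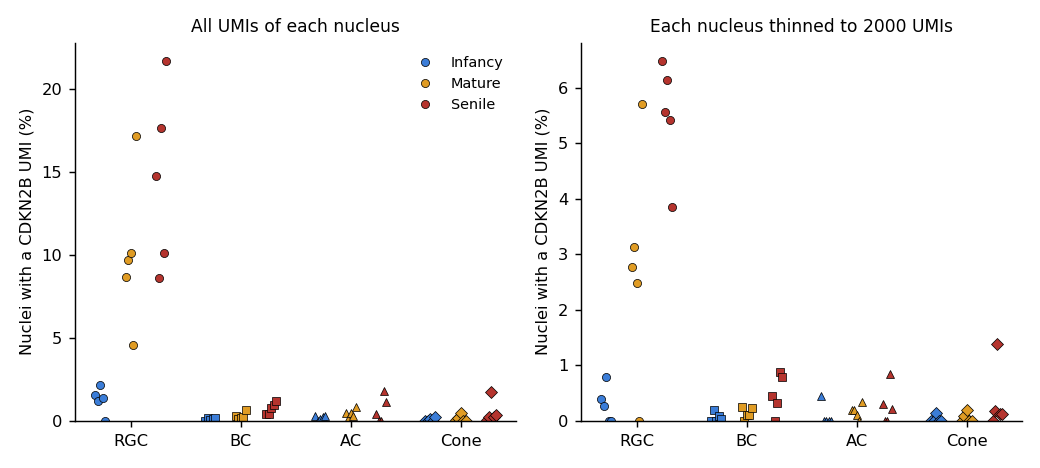
Percent of nuclei with at least 1 CDKN2B UMI in each retina (vertical axis) for RGCs, BCs, ACs and cones by stage, with all UMIs of a nucleus (left) and with each nucleus thinned to 2000 UMIs (right). After thinning, senile RGCs lie between 3.85% and 6.49% and infant RGCs at or below 0.792%.

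Within RGCs the level was also taken in nuclei that held a UMI of a subtype gene. In senile RGC nuclei with FOXP2, a forkhead factor, CDKN2B stood at 26.7 ± 7.1 CPM, and in those without at 28.3 ± 4.8 (SD, n = 5). For the guidance ligand SLIT2 the values were 25.2 ± 3.3 with and 30.1 ± 3.8 without, for the factor RUNX1 34.4 ± 15.1 and 27.7 ± 3.3, and for the receptor CALCRL 35.3 ± 9.6 and 27.7 ± 4.2. With SPP1, which encodes osteopontin, the mean was 26.8 ± 11.9 over the 4 retinas that had at least 10 such nuclei, against 28.6 ± 4.1 without. In mature RGCs the values were 8.29 ± 5.27 CPM with and 19.4 ± 5.1 without SLIT2 (n = 5 each). For the other genes 3 retinas with the gene stood against 5 without, at 16.1 ± 5.9 and 15.0 ± 4.6 for FOXP2, 16.7 ± 10.8 and 14.3 ± 4.0 for SPP1, 23.3 ± 1.5 and 14.3 ± 4.8 for CALCRL, and 26.3 ± 10.3 and 13.6 ± 4.4 for RUNX1. The infant means of all these subsets lay between 1.46 and 2.95 CPM and the senile means between 25.2 and 35.3, and no subset was tested.

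In BCs, CDKN2B was low but followed a similar order. It stood at 0, 0.913, 0.218, 0.340 and 0.40 CPM in Infancy 1 to 5, at 1.51, 0.671, 0.435, 0.989 and 1.30 in Mature 1 to 5, and at 2.43, 4.04, 3.63, 3.52 and 3.93 in Senile 1 to 5. Senile retinas lay above all others, while infant and mature retinas overlapped. Of all features in BCs, 2.61% had every senile retina above every infant one and 0.899% above every mature one. The log2 fold change between senile and infant BCs was 3.04 ± 0.49 (edgeR adjusted p = 0.00159), and 78 UMIs in 8648 senile BC nuclei stood against 13 in 13275 infant ones. The filter asked for 2.18 CPM in 5 retinas, which 5 senile, 0 mature and 0 infant retinas reached, so a gene that passed in this way had to differ. Without the filter the difference was 3.01 ± 0.57 (edgeR adjusted p = 1.97e-05), where 1.72% of all features passed. In such unfiltered fits the p-value rested on a spread shared over features, not on the gene's own spread between retinas. The lower p-value is therefore no stronger support. In RGCs 5 senile, 5 mature and 1 infant retina reached the corresponding limit of 3.56 CPM. The gene thus entered there mostly through the stages where it was high, and the RGC tests against infancy are not independent of the filter. Between mature and infant BCs the difference was 1.21 ± 0.52 (edgeR adjusted p = 0.334). Within the total RNA libraries the difference between senile and infant BCs was 3.25 but did not pass (adjusted p = 0.0706), and within the polyA RNA libraries the gene failed the filter.

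RGC markers in BC nuclei were taken as a rough scale for RNA from other cells. The gate used these same markers, so BC nuclei were chosen in part for few of them and RGC nuclei for many. CDKN2B took no part in the gate, and the shares below are therefore not on equal terms. The BC level of CDKN2B was 7.21 to 14.7% of the RGC level in the 5 senile retinas, whereas the summed RGC markers in BCs were 2.69 to 13.8% of their level in RGCs. The first share was above the second in 5 of 5 senile retinas, from 14.3% against 2.69% in Senile 2 to 14.3% against 13.8% in Senile 5, in 3 of 5 mature retinas and in 2 of the 4 infant retinas with CDKN2B in RGCs. The part of such RNA in the BC level was not tested. Without the nuclei gated as RGCs, all other nuclei together had a log2 fold change of 3.10 ± 0.37 between senile and infant stages (edgeR adjusted p = 0.000124). This sum was added after these values had been seen, and 1.52% of all features passed in its fit. It kept the nuclei assigned to no class, which held 3, 50 and 78 CDKN2B UMIs in infant, mature and senile retinas (0.0832, 1.17 and 2.89 CPM). Whether RGCs lay among them was not tested. For mature against infant stages the log2 fold change of this sum was 1.64 ± 0.36 (edgeR adjusted p = 0.0391, 1.02% of features). For senile against mature stages it was 1.46 ± 0.32, which did not pass (edgeR adjusted p = 0.220, 0 of 26170 features).

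In the other classes CDKN2B had too few UMIs for the filter. Cones held 2 UMIs in 4201 infant, 8 in 5458 mature and 52 in 7612 senile nuclei, and 38 of the 52 came from Senile 3. Without the filter, the cone difference between senile and infant retinas was 3.59 ± 0.92 on the log2 scale (edgeR adjusted p = 0.00551), in a fit in which 2.75% of all features passed. This p-value, too, rested on the spread shared over features. Without Senile 3 it was 2.71 ± 0.97 and did not pass (edgeR adjusted p = 0.184). Markers of other classes were also high in the cone nuclei of Senile 3, with RGC markers at 357 CPM against 54.4 to 87.7 in the other senile retinas, AC markers at 307 against 23.0 to 50.6, and Müller markers at 418 against 46.6 to 110 CPM. Its cone markers were lowest, at 4550 CPM against 7399 to 9668. The part of these other markers in the cone result was not tested. ACs held 9, 19 and 20 UMIs and Müller cells 1, 2 and 9 over the 3 stages, and unfiltered fits gave 1.98 ± 0.76 and 2.76 ± 1.21, which did not pass (edgeR adjusted p = 0.777 and 0.645). With classes set by cluster in place of single nuclei, ACs passed the filter and CDKN2B was higher in senile than in infant ACs by 2.99 ± 0.57 (edgeR adjusted p = 0.0123), where 1.08% of all features passed. The filter, which asked for 5 retinas, was reached there by 4 senile, 1 mature and 0 infant retinas, with 41, 51 and 11 UMIs in the respective stages. Here too a gene that passed had to differ, and the call is not independent of the filter. Clusters also took in ungated nuclei and nuclei gated to other classes, such as 17 of the 22 RGC nuclei of Mature 4. The part of these nuclei in the AC result was not tested. Microglia, with 8 retinas of at least 10 nuclei, had the highest mean level of the 9 classes, 18.2 ± 17.0 CPM against 14.9 in RGCs over all stages, but from 9 UMIs. By stage the means were 21.9 ± 31.0 (n = 2), 5.92 ± 10.3 (n = 3) and 28.0 ± 6.2 CPM (n = 3), from 3, 1 and 5 UMIs. Within the 8 retinas microglia lay above RGCs in 4, and the difference was within its spread (exact sign-flip permutation p = 0.344). HCs held 0, 2 and 6 UMIs, rods 0, 5 and 1, and astrocytes 1, 0 and 1.

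Over all stages, RGCs lay above BCs in 14 of 15 retinas, by 2.22 ± 1.09 on the log2(CPM + 1) scale (2-sided exact permutation by sign flips, adjusted p = 0.000326), in a comparison of the 5 classes present in every retina that was added after these values had been seen. Here and for the other genes, the class with the highest mean was set against the next. The pair was thus picked from the values tested, and the p-value is not independent of that choice. The difference between RGCs and BCs was 2.46 within the polyA RNA and 2.01 within the total RNA libraries (exact permutation, adjusted p = 0.0625 and 0.0313). The stage change of CDKN2B was then compared between classes, within retinas and on the log2(CPM + 1) scale. No pair met the planned rule, since CDKN2B passed in both classes where it was tested, so RGCs were set against BCs, cones, ACs and Müller cells after these values had been seen. The difference RGC minus BC was 2.71 ± 0.36 in senile and 1.03 ± 1.07 in infant retinas (SD, n = 5), a change of 1.67 by a 2-sided exact permutation test of the stage labels (p = 0.00794, the smallest that 5 against 5 retinas allow, adjusted over the 4 pairs p = 0.0106). Against cones the change was 2.37, against Müller cells 2.53 and against ACs 2.78. The infant means of these classes lay under the pseudocount of 1 CPM, at 0.374 CPM in BCs, 0.130 in cones, 0.469 in ACs and 0.0777 in Müller cells, so the scale compresses their changes, and the values reflect the added level rather than the ratio. On the scale of the fits, the log2 fold changes were 3.55 ± 0.32 in RGCs and 3.04 ± 0.49 in BCs. Without the filter they were 3.59 ± 0.92 in cones (2.71 ± 0.97 without Senile 3), 1.98 ± 0.76 in ACs and 2.76 ± 1.21 in Müller cells. No difference in ratio between classes was tested.

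Over all nuclei, CDKN2B stood at 0.672, 0.818, 1.01, 0.259 and 0.285 CPM in Infancy 1 to 5, at 3.46, 4.42, 1.45, 0.733 and 1.49 in Mature 1 to 5, and at 7.31, 6.57, 6.01, 4.59 and 4.63 in Senile 1 to 5. Senile retinas again lay above all others, and only Mature 4 reached into the infant range. Over all nuclei, 2.34% of all features had every senile retina above every infant one, and the share above every mature one is not given here. The lowest senile retina stood at 4.59 and the highest mature one at 4.42 CPM. The log2 fold change was 3.62 ± 0.33 between senile and infant and 2.11 ± 0.31 between mature and infant retinas (edgeR adjusted p = 7.52e-06 and 0.00205), in fits in which 1.59% and 0.958% of all features passed. The second call was lost without the library label in the fit (1.94, edgeR adjusted p = 0.175) and within the total RNA libraries (2.21, edgeR adjusted p = 0.300). RGCs made up 5.63%, 4.49% and 5.69% of the nuclei in the 3 stages and held 52.1%, 61.9% and 55.9% of the CDKN2B UMIs, so more than 1 in 2 of these UMIs lay in RGCs at each stage. Shares of nuclei do not allow for the UMIs per nucleus. With retinas pooled, CDKN2B stood at 2.59, 15.1 and 29.3 CPM in RGCs, against 0.518, 2.08 and 5.56 CPM over all nuclei.

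CDKN2C, which encodes the INK4 inhibitor p18, was near the limit of detection. It passed the filter over all nuclei only, with 39, 79 and 106 UMIs in the infant, mature and senile retinas. The filter asked there for 0.455 CPM in 5 retinas, which 5 senile retinas reached but only Infancy 1 of the infant ones. A gene that entered in this way tends to differ, so the test is not independent of the filter. The levels were 0.504, 0.227, 0.304, 0.306 and 0.171 CPM in Infancy 1 to 5 and 0.901, 0.892, 1.94, 0.775 and 0.894 CPM in Senile 1 to 5, without overlap, as for 2.34% of all features. Mature retinas lay between 0.299 and 0.947 CPM and overlapped with both. The log2 fold change between senile and infant retinas was 1.77 ± 0.43 and did not pass with edgeR (adjusted p = 0.0588), whereas it passed with DESeq2 (adjusted p = 0.00838), where 2.78% of all features did. Cones held 6, 15 and 48 of these UMIs over the 3 stages, and a fit without the filter gave 2.51 ± 0.73 between senile and infant cones (edgeR adjusted p = 0.0241), which did not pass without Senile 3 (2.07 ± 0.71, edgeR adjusted p = 0.136). The cone nuclei of that retina were high in markers of other classes. P-values of these unfiltered fits rested on a spread shared over features. Cones made up 10.7%, 14.5% and 21.9% of the nuclei in the 3 stages and held 15.4%, 19.0% and 45.3% of the CDKN2C UMIs. The part of this shift in the change over all nuclei was not tested. Shares of nuclei do not allow for the UMIs per nucleus. With retinas pooled, CDKN2C stood at 0.286, 0.565 and 1.88 CPM in cones, against 0.284, 0.521 and 1.03 CPM over all nuclei.

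CDKN1C, which encodes p57, a CIP/KIP inhibitor used by progenitors as they leave the cycle, was sparse in cones, BCs, ACs and RGCs and had the most UMIs among named classes in Müller cells, at 17.9 ± 5.3 CPM in infant, 25.7 ± 6.6 in mature and 20.9 ± 12.2 in senile retinas (SD, n = 5). Müller cells of Senile 3 were highest at 42.2 CPM and those of Infancy 2 lowest at 12.3 CPM, so that every retina held it. In BCs, cones, ACs and RGCs the means over all 15 retinas were 2.48, 2.12, 2.35 and 0.791 CPM. Müller cells lay above BCs in 15 of 15 retinas, by 2.84 ± 0.69 on the log2(CPM + 1) scale (2-sided exact permutation by sign flips, adjusted p = 0.000326 over 8 genes, from the lowest unadjusted p that 15 retinas can give, 6.1e-05), again among the 5 large classes. Within the polyA RNA libraries it was 2.99 ± 0.49, higher in 7 of 7 retinas, but at the lowest p that 7 retinas can give it did not pass (exact permutation, adjusted p = 0.0625). Rods, which are neurons, had a higher mean, 34.6 ± 25.5 CPM, but from 60 UMIs in 10 retinas, with a range of 7.20 to 88.2, and the difference from Müller cells was within its spread (0.37 ± 1.07, exact sign-flip permutation p = 0.289). Of infant rod nuclei 9.05% held a CDKN1C UMI and of mature ones 10.0%, against 5.21% and 8.63% of Müller nuclei, whereas in the senile stage the shares were 4.71% and 4.5%.

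Between stages CDKN1C did not pass in Müller cells, with a log2 fold change of -0.03 ± 0.31 between senile and infant retinas (edgeR adjusted p = 1.00), nor in BCs (-0.92 ± 0.69, adjusted p = 0.715). In astrocytes, where it failed the filter, CDKN1C stood at 55.0, 9.77, 24, 24.9 and 25.7 CPM in Infancy 1 to 5, from 30 UMIs in 401 nuclei. It stood at 12 CPM in Mature 1 and 0 in Mature 2 to 4, and at 8.43, 10.8 and 0 CPM in Senile 1, 3 and 4, from 2 UMIs in each stage. Infant retinas lay above the others except Infancy 2, and the share of nuclei with a UMI was 6.98% in infancy (exact 95% binomial interval 4.69 to 9.93%), 0.738% in the mature stage (0.0895 to 2.64%) and 1.05% in the senile stage (0.127 to 3.73%), with nuclei pooled over retinas and intervals of counting error only. BC markers in these astrocyte nuclei moved with the stages, at 533 ± 121 CPM in infancy, 1715 ± 918 in the mature and 2293 ± 1367 in the senile stage, where every senile retina (at least 1315) lay above every infant one (at most 665). Astrocyte markers stood at 4581 ± 1436, 4905 ± 1227 and 5857 ± 1111 CPM, and the part of the BC markers in the result was not tested. Without the filter, the log2 fold change was -3.07 ± 0.85 between mature and infant astrocytes and -2.36 ± 0.92 between senile and infant ones, and neither passed (edgeR adjusted p = 0.119 and 0.782, unadjusted p = 0.000298 and 0.0105). These p-values also rested on the spread shared over features. Over all nuclei, Mature 4 stood apart at 21.0 CPM, against 1.65 to 3.14 in the other mature retinas. Its ungated nuclei held 463 of its 689 CDKN1C UMIs, at 28.7 CPM, whereas ungated nuclei of the other 14 retinas reached 7.21 CPM at most.

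CDKN1A, the p53 target that encodes p21, had 141 UMIs among all nuclei kept. Müller cells held 37 of them at 1.31 ± 1.47 CPM (SD, n = 15), RGCs 1 and rods 0. Microglia had the highest mean, 7.36 ± 10.7 CPM (n = 8), and astrocytes stood at 1.37 ± 3.18 CPM (n = 12), but from 4 UMIs each. Müller cells lay above ACs, the next of the 5 large classes, in 8 of 15 retinas, by 0.62 ± 0.76 on that scale (exact sign-flip permutation, adjusted p = 0.0188), although 7 of the 15 Müller samples held none. The difference was 0.29 ± 0.82 within the polyA RNA libraries and 0.91 ± 0.62 within the total RNA libraries, and neither passed (exact sign-flip permutation, adjusted p = 0.571 and 0.05). Over all nuclei the stage means were 0.364 ± 0.182, 0.388 ± 0.639 and 0.209 ± 0.188 CPM, and it failed the filter there and in every class. CDKN1B, which encodes p27, held 1 UMI in all barcodes, against 4723 UMIs of an antisense feature named after it, CDKN1B-AS-4. Its level is therefore not known from these counts.

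**Figure D3:**
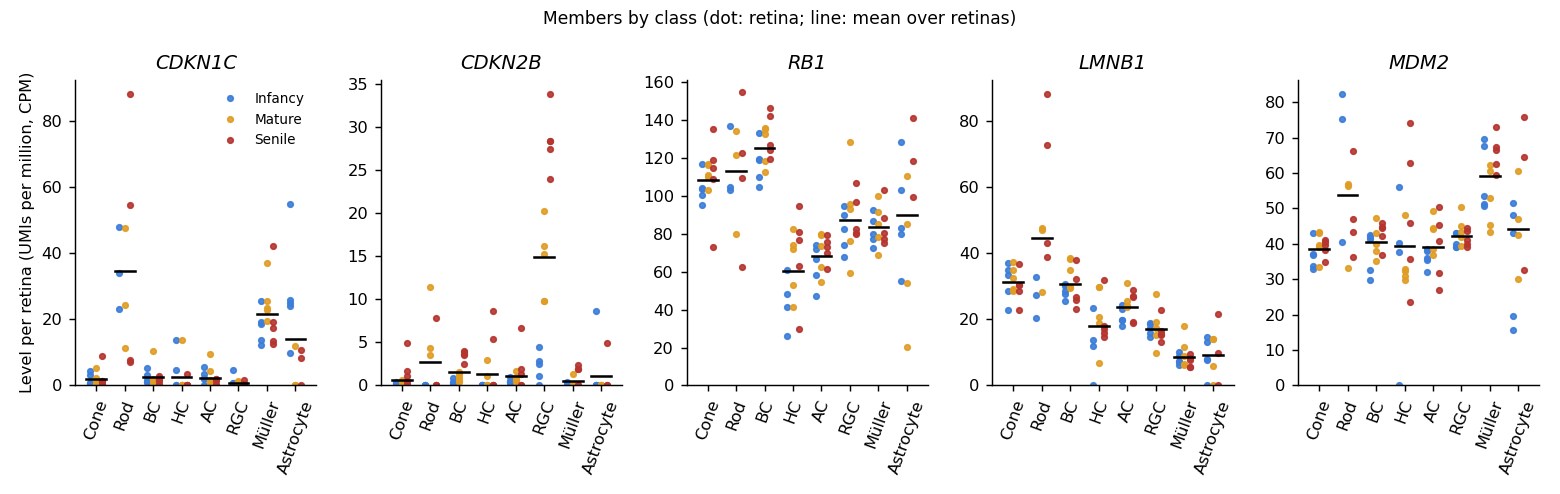
Levels of CDKN1C, CDKN2B, RB1, LMNB1 and MDM2 in UMIs per 1000000 UMIs (vertical axis, from 0, with a scale for each gene) in each retina by class, coloured by stage, for classes with at least 10 nuclei in the retina; black lines give the mean over retinas. CDKN2B is spread by stage in RGCs, CDKN1C is raised in Müller cells and rods, and LMNB1 is low in Müller cells and astrocytes.

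RB1, the pocket protein on which these inhibitors converge, was detected in every class and retina with at least 10 nuclei. Levels of RB1 were highest in BCs, at 125 ± 12 CPM (SD, n = 15), followed by rods at 113 ± 27 (n = 10) cones at 108 ± 14 (n = 15), microglia at 107 ± 27 (n = 8) and astrocytes at 89.6 ± 34.4 (n = 12). RGCs stood at 87.0 ± 16.7, Müller cells at 83.7 ± 9.8, ACs at 68.4 ± 9.8 and HCs at 60.2 ± 21.0 CPM (n = 14). Neighbours in this order mostly differed by less than their spread, including BCs and rods (0.20 ± 0.38) and RGCs and Müller cells (0.04 ± 0.32, log2). BCs lay above cones in 13 of 15 retinas, by 0.21 ± 0.27 (exact sign-flip permutation, adjusted p = 0.00464), a pair picked by the class means. The difference was 0.36 ± 0.29 within the total RNA libraries and 0.04 ± 0.12 within the polyA RNA libraries, where it did not pass (exact sign-flip permutation, adjusted p = 0.0208 and 0.571). Between stages RB1 was tested in 8 classes, where its log2 fold change between senile and infant retinas ranged from -0.18 to 0.40 and passed in 0. In RGCs, in which CDKN2B rose, RB1 stood at 81.7 ± 10.9, 90.3 ± 25.7 and 89.1 ± 12.1 CPM in the 3 stages, with a log2 fold change between senile and infant RGCs of 0.002 ± 0.15 (edgeR adjusted p = 1.00).

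LMNB1, which encodes a protein of the nuclear lamina whose loss is used as a mark of senescence, did not pass in any of the 4 classes tested. Its levels were 31.3 ± 4.7 CPM in cones, 30.7 ± 4.9 in BCs, 17.2 ± 4.1 in RGCs, 23.7 ± 3.9 in ACs and 8.5 ± 3.2 in Müller cells (SD, n = 15). Cones and BCs differed by less than their spread (0.03 ± 0.27, log2, exact sign-flip permutation p = 0.716). Rods held 44.7 ± 21.1 CPM over 10 retinas, from 86 UMIs. By stage the rod means were 26.9 ± 6.2 (n = 3), 41.0 ± 10.9 (n = 3) and 60.8 ± 23.6 CPM (n = 4) in infant, mature and senile retinas. They came from 24, 43 and 19 UMIs, and LMNB1 in rods was not tested between stages. In RGCs LMNB1 stood at 17.1 ± 1.8 CPM in infant, 17.9 ± 6.5 in mature and 16.7 ± 3.7 in senile retinas, with a log2 fold change of -0.14 ± 0.20 between senile and infant RGCs (edgeR adjusted p = 0.993). Over the 4 classes tested the fold changes between senile and infant retinas ranged from -0.15 to 0.08, and between senile and mature retinas from -0.30 to -0.16, with no adjusted p under 0.498.

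MDM2, the ubiquitin ligase that holds p53 down and is itself a p53 target, stood at similar levels in the 4 neuron classes present in every retina. Levels of MDM2 were 38.4 ± 3.5 CPM in cones, 40.4 ± 5.0 in BCs, 39.2 ± 6.6 in ACs and 42.1 ± 3.0 in RGCs (SD, n = 15). Müller cells stood at 59.0 ± 9.1 CPM, above RGCs in 14 of 15 retinas by 0.46 ± 0.24 on the log2 scale (exact sign-flip permutation, adjusted p = 0.000326). Within the polyA RNA libraries it was 0.36 ± 0.29 and did not pass (exact sign-flip permutation, adjusted p = 0.0833), and within the total RNA libraries 0.55 ± 0.16 (exact sign-flip permutation, adjusted p = 0.0208). Rods came next to Müller cells at 53.7 ± 16.7 CPM over 10 retinas, and the difference from Müller cells was within its spread (0.23 ± 0.54, exact sign-flip permutation p = 0.205). Müller cells of the mature retinas stood at 52.8 ± 8.6 CPM and those of the senile retinas at 65.8 ± 5.1, a log2 fold change of 0.27 ± 0.14 that did not pass (edgeR adjusted p = 0.622). Over 6 classes the fold changes between senile and infant retinas ranged from -0.10 to 0.13.

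**Figure D4:**
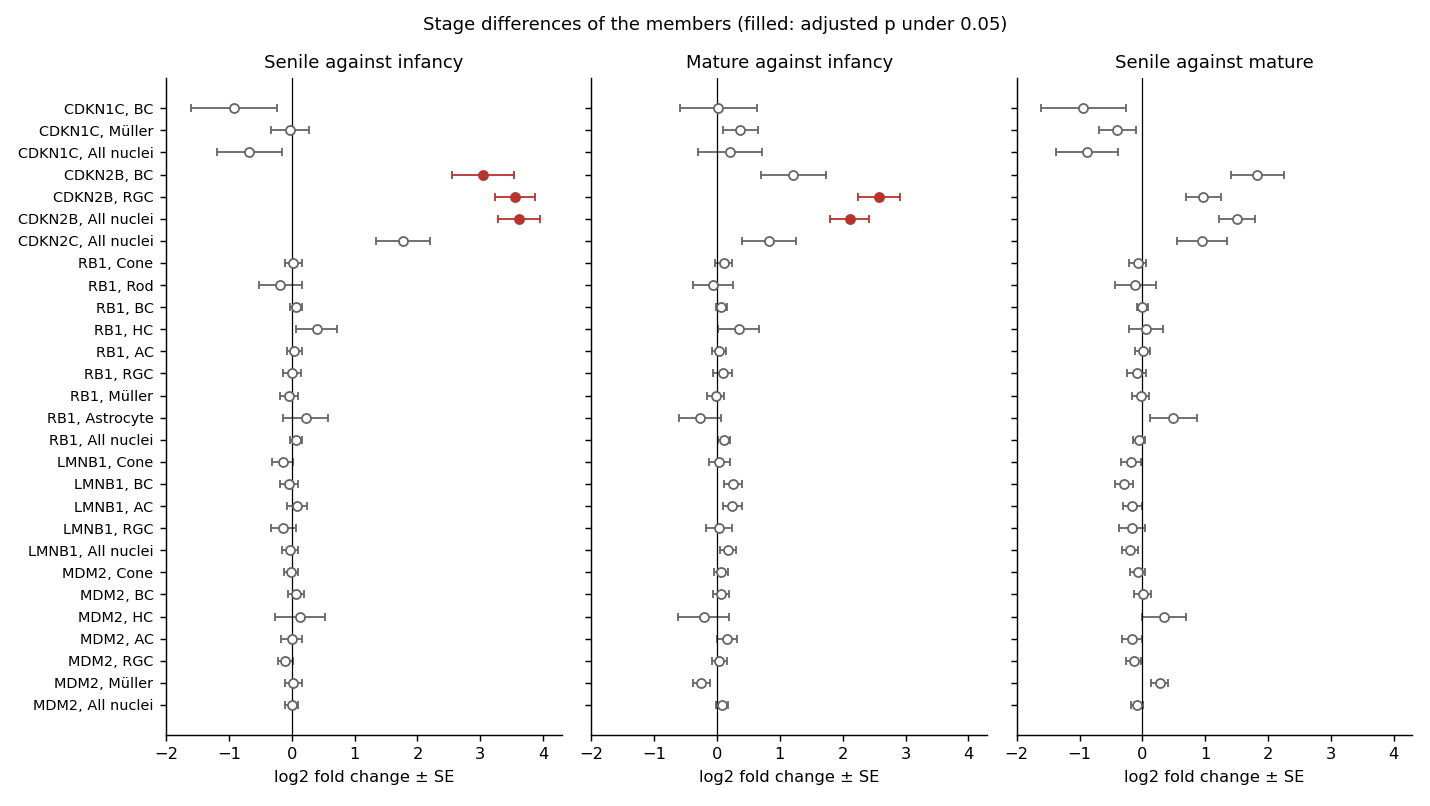
Log2 fold change with its SE (horizontal axis) of each member and class that passed the filter, for the 3 comparisons between stages; filled red points had an adjusted p under 0.05. CDKN2B in RGCs, in BCs and over all nuclei is filled between senile and infant retinas, and in RGCs and over all nuclei between mature and infant retinas, and no point of another gene is filled.

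Leaving CDKN2B aside, 20 pairs of member and class were tested in each comparison, and 0 passed in any of the 3 with edgeR, 0 had an unadjusted p under 0.05 and 0 passed with DESeq2. None of these 60 tests gave a fold change of more than 2, with a range of -0.94 to 0.50 on the log2 scale. Of all features tested in the other classes, 1.45%, 1.05%, 1.13%, 0.407%, 0.11% and 0.0667% passed between senile and infant cones, ACs, Müller cells, rods, HCs and astrocytes. Between mature and infant retinas the shares were 1.14%, 0.46%, 0.933%, 0.281%, 0.0441% and 0.0334% in the same order and 1.04% in BCs. Between senile and mature retinas 0.00719% passed in ACs, 0.0199% in Müller cells and 0 in the others and over all nuclei. The size of change that could have been missed differs by class. In simulated counts with known changes between senile and infant retinas, 88% of 4-fold and 46% of 2-fold changes were found in RGCs, 80% and 40% in BCs, but 2% and 0% in microglia.

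Other genes of the pathway were read from 9 lists, of whose 113 genes 106 matched a feature, 9 of them listed at 0. Between senile and infant retinas the lists made up 303 pairs of gene and class, of which 0 passed with edgeR, 27 had an unadjusted p under 0.05 and 3 passed with DESeq2, where 8.86% of all features over the same classes had an unadjusted p under 0.05 and 1.88% passed with DESeq2. Over all nuclei 0 of 78 list genes passed (8 unadjusted, 0 with DESeq2), where 10.9% of all features had an unadjusted p under 0.05. The kinases that p15 blocks were among those chosen for naming after their values were seen. In RGCs, CDK4 stood at 5.82 ± 0.78 CPM in infant and 5.57 ± 2.24 in senile retinas (log2 fold change -0.07 ± 0.30). CDK6 stood at 5.19 ± 3.52 and 15.8 ± 11 CPM (1.36 ± 0.55, edgeR unadjusted p = 0.0224, adjusted p = 0.551). Among the Polycomb genes that silence the INK4 locus in dividing cells, EZH2 stood at 8.62 ± 4.26 and 6.22 ± 2.11 CPM (-0.51 ± 0.40) and BMI1 at 9.12 ± 1.99 and 12.8 ± 2.1 (0.37 ± 0.23), and neither passed (edgeR adjusted p = 0.931 and 0.862).

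In RGCs, the median log2 fold change between senile and infant retinas was 0.12 for the 6 repressors of the INK4 locus tested, -0.13 for 6 p53 targets, 0.05 for 10 p53 regulators and damage kinases, 0.16 for 6 pocket proteins and E2F factors, -0.07 for 7 G1 cyclins and kinases and 0.10 for 5 proliferation genes. It was -0.19 for 4 genes of the lamina and chromatin and -0.38 for 9 secreted factors of senescent cells, where the median of all features was -0.02. A further list held CDKN2D, CDKN3 and CDKN2AIP, of which only CDKN2D is of the INK4 family. CDKN2D held 10 UMIs in all barcodes, and the 1 gene tested of CDKN3 and CDKN2AIP gave -0.24. That value says nothing about further INK4 inhibitors. In each of these 9 lists 0 genes passed in RGCs with edgeR, and 0 passed with DESeq2. Of the 54 list genes in RGCs, 7 had an unadjusted p under 0.05 by edgeR. That share is higher than the 7.12% of all features (1065 of 14953), and the lists were not tested as sets.

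Likeness was measured by Spearman's rank correlation between class means of log2(CPM + 1) over 27 combinations of class and stage, among 15062 features that reached 10 CPM in a class, as a description in which points of 1 stage share libraries. CDKN2B was most like LINC-ATP5PD-10 (0.86), CLEC2D11 (0.79) and TRAPPC9li1 (0.77), and LMNB1 most like IP6K2 (0.92), JADE1 (0.92) and LINC-RPL6-512 (0.90). The features most like RB1 were FCHO2 (0.84), NECAP2 (0.81) and RSPRY1 (0.79), those most like CDKN1C were ACTL6A (0.75), LRCH3-AS-1 (0.75) and EPAS1-AS-3 (0.74), and those most like MDM2 were RFX3-AS-3 (0.77), PTPRU (0.77) and NUP35 (0.74).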

How the data were processed

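Raw UMI counts per feature and barcode were deposited by the authors, 1 matrix per retina, without normalization. Cell Ranger had been run against the TS_3.0 genome, and file headers give 6.1.2 or 7.0.1 and the submitters' processing notes 5.0.1 or 7.0.1, split as the polyA RNA and total RNA labels are. Whether intronic reads were counted is not given in the sources used here. Nuclei with over 200 and under 6000 genes and under 5% mitochondrial UMIs were kept (119765), and 7940 (6.63%) were removed as doublets by simulated doublets at 8 per 1000 for every 1000 nuclei. A nucleus entered a class by its marker counts (each limited to 4), with a posterior of at least 0.95 and 2 markers of the class; the members took no part. Of RGC nuclei, 163 (2.77%) lay near this limit, with a posterior under 0.99.

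Counts were summed per retina and class (at least 10 nuclei) and tested with edgeR (TMM, filterByExpr, quasi-likelihood) on stage and library label, with Benjamini-Hochberg adjustment over all features of the class. The SE is the fold change divided by the root of F. In fits without the filter, p-values rested on a spread shared over features and not on a gene's own spread between retinas. Sex, which the study's methods fit, is not in the labels used here. Class levels were compared by exact sign flips, with a pseudocount of 1 CPM. The class with the highest mean was set against the next on the same values, so the pair was not chosen independently of its test. Members and lists were chosen with earlier results of these data known. Named beyond the members are list genes past the threshold (at most 5 per list, comparison and class; none passed with edgeR, and the list genes named were chosen after their values were seen) and the 3 features most like each member that reached 10 CPM. Python 3.11.15, R 4.3.3, edgeR 4.0.16 and DESeq2 1.42.0 were used, and the fits were tested on simulated data with 200 changed genes per class.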

Additional observations from a re-analysis of the deposited data

Results flagged for a closer look

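In 81 groups of 4 or 5 retinas, 6 had 1 retina far from the others by Dixon's criterion, which chance gives in about 1 in 20 groups. CDKN1C stood apart in Mature 4 in BCs (10.3 CPM) and over all nuclei (21.0 CPM), and in Senile 3 in Müller cells (42.2 CPM). CDKN2C stood apart in Senile 3 over all nuclei (1.94 CPM), MDM2 in HCs of Mature 4 (48.0 CPM) and LMNB1 in ACs of Mature 5 (31.0 CPM).

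The change of CDKN2B from infancy to the senile stage was larger in RGCs than in 4 other classes on the log2(CPM + 1) scale by exact permutation, by 1.67 for BCs, 2.37 for cones, 2.78 for ACs and 2.53 for Müller cells. These pairs were chosen after the values were seen, and since the infant means of the other classes lay under the pseudocount, the scale favours the class with the higher level. The fitted log2 fold changes were 3.55 ± 0.32 in RGCs and 3.04 ± 0.49 in BCs. Without a filter they were 3.59 ± 0.92 in cones, 1.98 ± 0.76 in ACs and 2.76 ± 1.21 in Müller cells. The cone value was 2.71 ± 0.97 without Senile 3, and no difference in ratio was tested.

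Features named after a member held signal while the member itself held little. CDKN1B held 1 UMI, whereas CDKN1B-AS-1 to CDKN1B-AS-5 held 190, 1521, 726, 4723 and 162 UMIs and LINC-CDKN1B-1 held 102. LINC-CDKN2C-1 held 384 UMIs. None of these passed in any class and comparison where it was tested with edgeR. Whether they belong to the transcripts they are named after was not tested.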

How the results depend on the processing

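Normalization by DESeq2 size factors, a minimum of 30 nuclei, kept doublets and classes by cluster left each CDKN2B call in place. Leaving out each retina in turn gave log2 fold changes between senile and infant stages of 3.39 to 3.87 in RGCs, 2.87 to 3.44 in BCs and 3.47 to 3.81 over all nuclei, all past the threshold, though in BCs, where the gene reached the filter through senile retinas alone, a gene that passed had to differ. No value reversed. The number of member and class pairs called between senile and infant retinas was 4 without a filter, 1 with the stricter gate (CDKN2B in BCs failed the filter), 0 after thinning to the smallest class total (CDKN2B failed the filter) and 1 within each set of library labels. Between mature and infant retinas it was 0 after thinning and 0 within the total RNA libraries, where CDKN2B in RGCs gave 3.75 (adjusted p = 0.0889). Between senile and mature retinas it was 1 with DESeq2 and 1 without a filter, as CDKN2B in BCs gave 1.87 and 1.78 (adjusted p = 0.0166 and 0.0439). CDKN2B in BCs between senile and infant retinas gave 3.25 within the total RNA libraries and missed the threshold. Over all nuclei edgeR made 2 calls over 3 comparisons, DESeq2 made 4, and the fit without the label term and that within the total RNA libraries made 1 each, as CDKN2B between mature and infant retinas gave 1.94 and 2.21 (adjusted p = 0.175 and 0.300). DESeq2 called CDKN2B between senile and mature retinas over all nuclei at 1.48. CDKN2C over all nuclei also passed with doublets kept, without Infancy 1 and without Mature 4 (1.76, 2.00 and 1.81), over a range of 1.47 to 2.00. It had reached the filter mostly through senile retinas. The causes of these shifts, where a filter or fewer samples did not make them, were not tested. Over all nuclei, 2.78% of all features passed with DESeq2 between senile and infant retinas, against 1.59% with edgeR. For most of these settings the share of all features called was not set beside the member counts. Those counts are therefore not a result about the members.

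With the replicate block, CDKN2B gave 3.88 in RGCs (edgeR adjusted p = 7.91e-05), 3.10 in BCs (0.0185) and 3.67 over all nuclei (0.000535) between senile and infant retinas, and no call changed. The BC call keeps the limit of its filter, which was reached through senile retinas alone. Replicate numbers were not taken as pairs: deviations of same-numbered retinas correlated at -0.45 to 0.54, over 0.1 in 13 of 15 pairs, and 2 retinas correlated best with their own number.

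Among members, 0 passed the class test over all 9 classes, 1 with doublets kept and 5 among the 5 classes present in every retina, a choice made after the data were seen, as were the 4 pairs of classes for CDKN2B that passed where 0 had met the plan. List genes made 0 calls with edgeR over classes, all nuclei and comparisons, 7 with DESeq2, 19 without a filter, 2 with doublets kept, 2 with classes by cluster, 6 within the polyA RNA libraries and 0 to 1 when a retina was left out (Infancy 1, Mature 1, Mature 5 or Senile 4). The shares of all features called under these settings were not set beside these counts, so the counts are not a result about the lists. No member has numbered copies, so summing copies changes nothing. Few UMIs limit CDKN1A and CDKN2C in all classes and all members in microglia, rods and astrocytes, and the floor of 3 UMIs lies at 0.673 to 14.8 CPM in RGCs of single retinas.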
